A study of Mus musculus with 7 samples.

Results

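The genes described here code for the basement membrane and the nearby extracellular matrix, and were measured in mouse primary hepatocytes after transfection with a miR-709 mimic. They were chosen by symbol, as 22 genes of the basement membrane, 8 of adhesive and matricellular glycoproteins, 7 of fibril and microfibril collagens and 2 of lysyl oxidases. All 39 of the 39 listed genes were measured, each by 1 probe set that carries only its own symbol, among 19938 genes tested. Hepatocytes of male C57BL/6J mice were freed with collagenase and separated from other liver cells on a Percoll gradient. In culture with serum, insulin and dexamethasone they received 1 µg of miR-709 mimic (4 arrays, replicates A to D) or 1 µg of the control Cel-239b, a miRNA of *C. elegans* (3 arrays, replicates B to D), both with the transfection reagent Metafectene-Pro. RNA was taken 24 h later. The age of the mice is not given in the sources used here. The labels and methods do not say whether the replicates came from separate mice or isolations, and p-values then reflect only how far these arrays spread, which may be technical.

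A basement membrane is a thin sheet of matrix on which epithelial, muscle and endothelial cells rest. Laminins, trimers of an alpha, a beta and a gamma chain, assemble on the cell surface, type IV collagen trimers form a cross-linked net, and nidogens and the heparan sulfate proteoglycans perlecan and agrin tie the layers together. In healthy liver, hepatocytes face the sinusoid across a loose matrix rich in fibronectin, without a continuous basement membrane. Hepatocytes secrete much of the fibronectin and vitronectin of plasma, whereas most fibrillar collagen of injured liver comes from stellate cells and other fibroblasts.

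The values are log2 signals after RMA. They allow a gene to be compared between arrays, while signals of different probe sets are not on a common scale. Over all genes, arrays of 1 treatment correlated at 0.997 to 0.998, and arrays of different treatments at 0.994 to 0.996. Log2 fold changes had a median of 0.01 and a median standard error of 0.08. The number of arrays limits the precision. A gene counts as called, lower or higher, when limma gave it an adjusted p under 0.05 (Benjamini-Hochberg over the whole table). *Alb*, the gene of serum albumin, gave log2 signals of 13.41 to 13.48 on the miR-709 arrays and 13.46 to 13.52 on the Cel-239b arrays. All 13 of the measured hepatocyte markers had a mean log2 signal over 6, against 43.3% of all genes.

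With miR-709, 3 of the 39 matrix genes were lower and 36 were not called. Those that fell were *Nid1* (nidogen 1), *Thbs1* (thrombospondin 1) and *Col4a2* (a chain of type IV collagen). They make up 7.69% of the matrix genes, against 1.47% of all genes tested that were called lower. This list and the others below were chosen with earlier results of these data known. The authors had already reported *Nid1* and *Thbs1* as lower on these arrays. Such shares describe a list and are no test of it. No matrix gene was called higher by limma, against 1.81% of all genes. At an unadjusted p under 0.05, 6 matrix genes were lower and 0 higher, where 5.83% of all genes were lower and 9.15% higher, and the methods' t-test also called 3 lower and 0 higher after adjustment. In 5 of the 39 (12.8%) every miR-709 array lay below every Cel-239b array, which held for 4.91% of all genes. The opposite separation was found in 0 matrix genes, against 7.44% of all genes. The median log2 fold change of the 39 genes was -0.04, against 0.01 over all genes, and 25 were below 0 and 14 above. Without the 3 called genes the median was -0.02. The plot of fold changes by role shows 3 genes far from 0 and most others close to it.

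**Figure D1:**
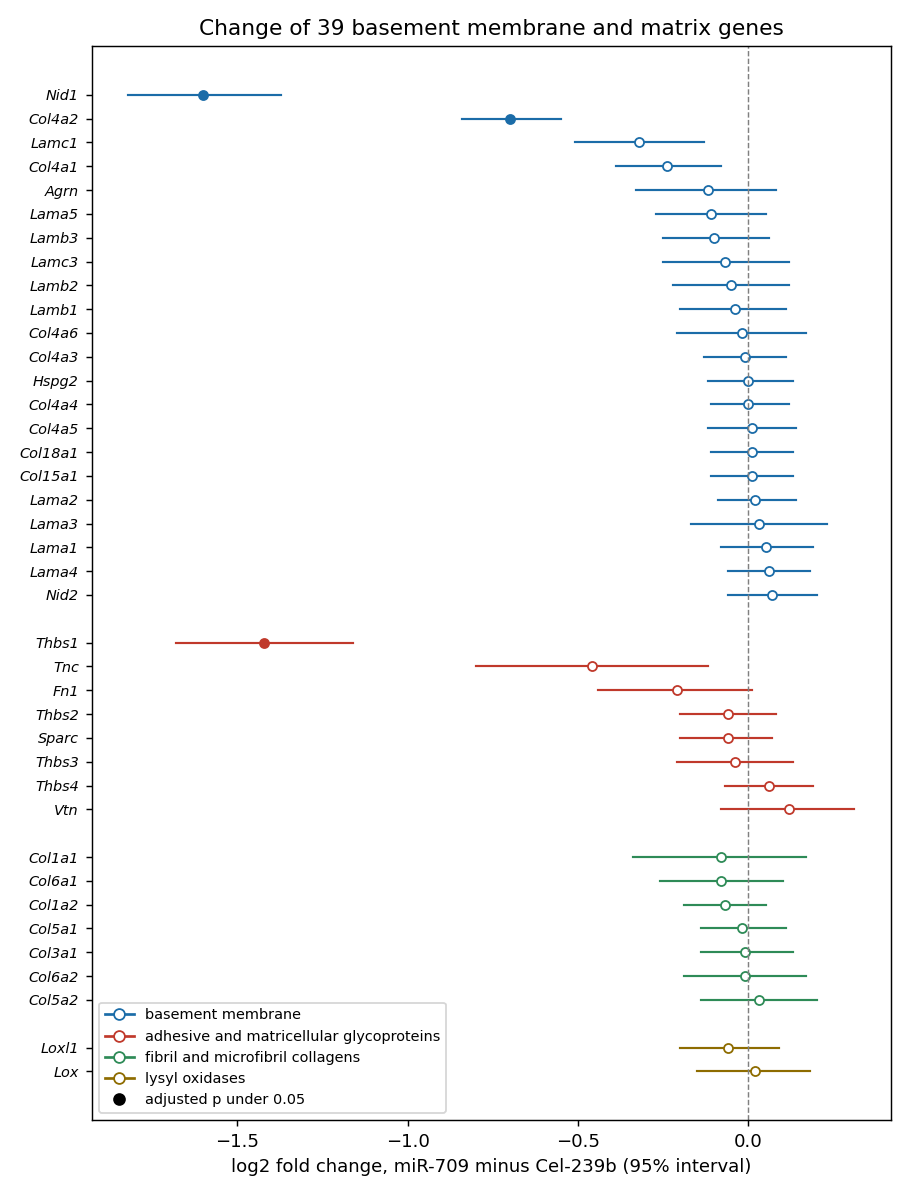
Log2 fold change of the 39 matrix genes (x axis, miR-709 minus Cel-239b, 4 and 3 arrays), with the 95% interval from limma as a line, in 4 colours by role and sorted within each role. Filled points mark the 3 genes with an adjusted p under 0.05, *Nid1* (-1.60), *Thbs1* (-1.42) and *Col4a2* (-0.70), and the other 36 genes lie between -0.46 and 0.12.

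Nidogen 1 is a sulfated glycoprotein that binds both laminin and type IV collagen and so bridges these networks. The log2 signal of *Nid1* was 8.99, 8.78, 8.60 and 8.90 on miR-709 arrays A, B, C and D, against 10.57, 10.34 and 10.33 on Cel-239b arrays B, C and D. All miR-709 arrays lay below all Cel-239b arrays, and a gap of 1.34 separated the highest of the miR-709 arrays from the lowest Cel-239b array. *Nid1* averaged 8.82 ± 0.17 with miR-709 (SD, n = 4) and 10.41 ± 0.14 with Cel-239b (SD, n = 3), so that the log2 fold change came to -1.60 (standard error 0.10, 95% interval -1.82 to -1.37, adjusted p = 9.57e-05 from limma). The signal was thus 3.02-fold lower with miR-709, at 33.1% of the Cel-239b level, and its fold change ranked 10 from the lowest among the 19938 genes. In RNA of a whole culture, fewer cells of a type and less RNA per cell cannot be told apart, here or in the results that follow.

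The start of *Nid1* is shown because this gene had the largest fall among the matrix genes. The window is of RefSeq on build GRCm38.p6, chr13:13437352-13437651 on the plus strand, from 250 bases before to 50 bases after the start of the gene. It is 64.7% G and C. The capitals mark a match to the GC box GGGCGG and a match to the TEAD motif CATTCC, which lies on the other strand and reads GGAATG here.
Nid1 window: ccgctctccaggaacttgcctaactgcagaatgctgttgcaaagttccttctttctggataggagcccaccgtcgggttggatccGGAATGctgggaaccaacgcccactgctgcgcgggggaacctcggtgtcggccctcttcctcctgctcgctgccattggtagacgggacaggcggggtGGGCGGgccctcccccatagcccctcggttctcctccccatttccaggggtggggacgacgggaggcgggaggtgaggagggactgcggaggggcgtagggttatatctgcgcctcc

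Windows of this kind were in the RefSeq table for 26 of the 39 matrix genes, and both strands of each were searched for 5 motifs. GGGCGG was found in 17 of the 26 genes and in 35.7% of all 32851 windows of the table, and CATTCC in 8 genes and 14.7% of all windows. TATAAA was found in 4 genes (13.6% of all windows), the AP-1 motif TGANTCA in 1 gene, *Col6a1* (7.81%), and the CArG box in 1 gene, *Lama2* (1.63%). The median G and C content was 59.3% over the 31 windows of matrix genes and 52.7% over all windows. The counts are by gene and the shares by window, and some of the 26 genes had more than 1 window and so more chances of a match. These are counts of letters in a window, and binding was not measured. *Thbs1* is named only.

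*Nid2* codes for nidogen 2, the relative that binds many of the same partners. Its log2 signal was 5.71, 5.75, 5.64 and 5.70 on miR-709 arrays A to D and 5.71, 5.60 and 5.58 on Cel-239b arrays B to D, and the treatments overlapped. Its log2 fold change was 0.07 (95% interval -0.06 to 0.20, adjusted p = 0.645). The difference *Nid1* minus *Nid2* within an array was 3.28, 3.03, 2.96 and 3.20 with miR-709 and 4.86, 4.74 and 4.75 with Cel-239b. It was smaller on every miR-709 array. The change in this difference was -1.67, and the exact two-sided permutation test over the 35 ways to divide the arrays gave p = 0.0286, the smallest it can give. As *Nid2* had a low mean signal (5.67) and hardly changed, this p repeats the separation of *Nid1* and adds no support of its own. The pairs of relatives compared in this way, 6 in all, were chosen after their values were seen, and Benjamini-Hochberg adjustment over the 6 gave 0.0857 for *Nid1* and *Nid2*.

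**Figure D2:**
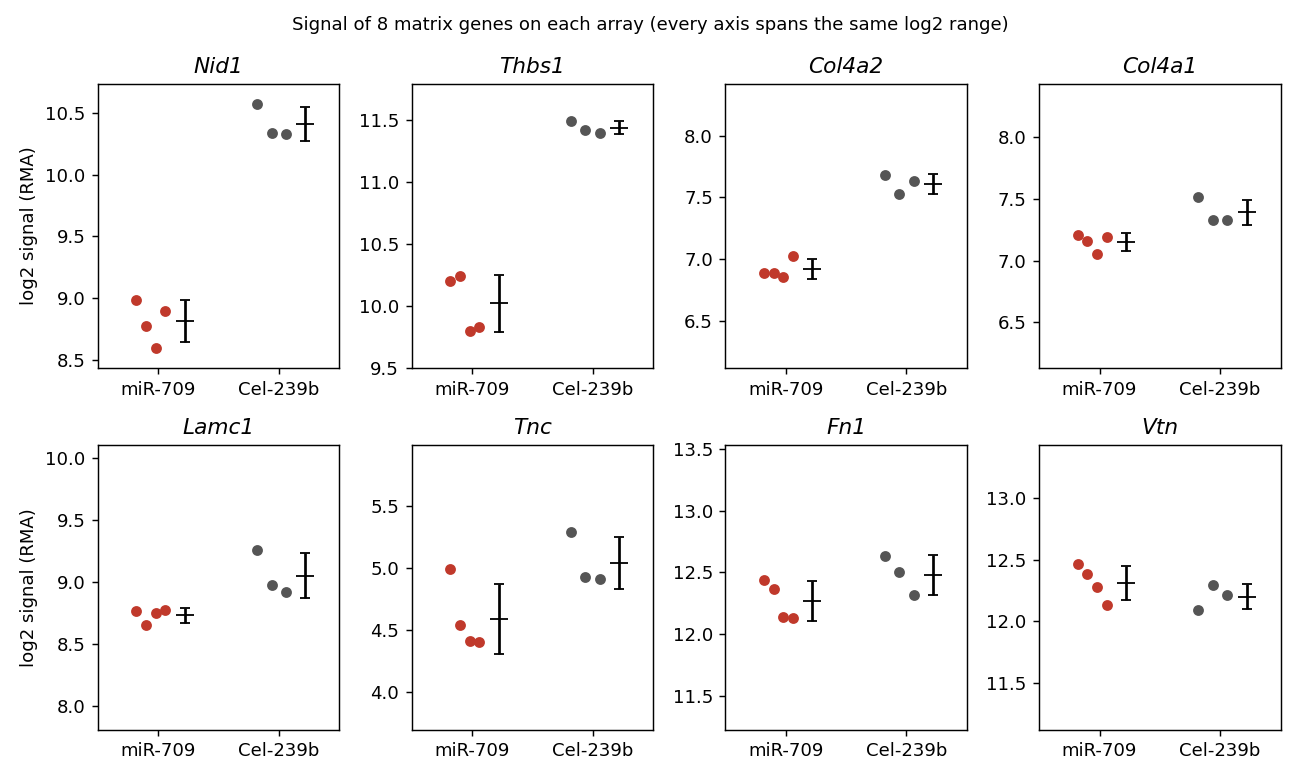
Log2 signal (y axis) of 8 matrix genes on each of the 4 miR-709 arrays (left) and 3 Cel-239b arrays (right), points in the order A to D and B to D, with the mean and SD beside them. All axes span the same log2 range, and *Nid1*, *Thbs1*, *Col4a2*, *Col4a1* and *Lamc1* have every miR-709 array below every Cel-239b array.

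Type IV collagen is made of trimers of chains from 6 genes, and the most widespread trimer holds chains of *Col4a1* and *Col4a2*. *Col4a2* gave log2 signals of 6.89, 6.89, 6.86 and 7.03 on miR-709 arrays A to D, against 7.68, 7.53 and 7.63 on Cel-239b arrays B to D. The treatments did not overlap and lay 0.50 apart at their closest. The means were 6.92 ± 0.08 with miR-709 (SD, n = 4) and 7.61 ± 0.08 with Cel-239b (SD, n = 3), so that the log2 fold change came to -0.70 (standard error 0.07, 95% interval -0.84 to -0.55, adjusted p = 0.000543 from limma), or 1.62-fold lower.

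The partner chain gene *Col4a1* gave 7.21, 7.16, 7.05 and 7.19 on miR-709 arrays A to D and 7.51, 7.33 and 7.33 on Cel-239b arrays B to D. Here too the treatments did not overlap, with a smaller gap of 0.12. Its log2 fold change of -0.24 (95% interval -0.39 to -0.08, unadjusted p = 0.00716, adjusted p = 0.126) did not pass the threshold. The difference *Col4a2* minus *Col4a1* within an array was -0.32, -0.27, -0.19 and -0.16 with miR-709, against 0.17, 0.20 and 0.30 with Cel-239b, so that it was lower on every miR-709 array. It averaged -0.24 ± 0.07 with miR-709 (SD, n = 4) and 0.22 ± 0.07 with Cel-239b (SD, n = 3), a change of -0.46. The exact two-sided permutation test gave p = 0.0286, the smallest it can give, and 0.0857 after adjustment over the 6 pairs. This pair too was chosen after its values were seen. The sign of a difference between probe sets has no meaning of its own, and only its change between treatments does.

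*Col4a1* and *Col4a2* lie next to each other on chromosome 8, on opposite strands and with their starts close together. Their RefSeq windows (GRCm38.p6) are shown because these neighbouring genes had log2 fold changes of -0.24 and -0.70. The permutation test of this difference gave 0.0857 after adjustment over the 6 pairs. The window of *Col4a1* is chr8:11312777-11313076 on the minus strand and that of *Col4a2* is chr8:11312555-11312854 on the plus strand. Each is given in the direction of its gene, and the capitals mark the 78 bases that both hold, which are reverse complements of each other.
Col4a1 window: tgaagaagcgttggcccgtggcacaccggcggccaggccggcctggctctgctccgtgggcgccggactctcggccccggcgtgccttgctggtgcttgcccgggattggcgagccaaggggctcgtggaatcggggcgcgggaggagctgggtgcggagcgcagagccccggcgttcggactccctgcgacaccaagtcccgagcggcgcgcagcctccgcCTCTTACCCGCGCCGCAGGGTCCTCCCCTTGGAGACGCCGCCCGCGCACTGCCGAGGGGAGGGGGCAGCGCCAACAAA
Col4a2 window: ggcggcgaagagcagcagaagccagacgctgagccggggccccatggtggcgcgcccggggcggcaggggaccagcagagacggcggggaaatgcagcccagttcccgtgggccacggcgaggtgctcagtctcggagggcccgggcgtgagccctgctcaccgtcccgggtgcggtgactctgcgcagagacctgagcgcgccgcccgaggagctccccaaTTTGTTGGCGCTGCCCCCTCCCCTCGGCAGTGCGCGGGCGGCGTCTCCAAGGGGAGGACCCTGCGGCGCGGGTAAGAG
The windows were 74.0% and 73.7% G and C, and GGGCGG occurred in both. The only match in the *Col4a1* window lies in the shared bases and is thus counted for both genes.

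The 4 other type IV collagen genes showed little difference. They form trimers of more limited distribution, such as those of the kidney filter. *Col4a3* averaged a log2 signal of 5.30 with miR-709 and 5.31 with Cel-239b, and *Col4a4* averaged 5.13 with miR-709 and 5.12 with Cel-239b. *Col4a5* averaged 5.21 with miR-709 and 5.20 with Cel-239b, and *Col4a6* averaged 4.51 with miR-709 and 4.53 with Cel-239b. Their log2 fold changes lay between -0.02 and 0.01, and none was called.

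*Col4a4* and *Col4a3* are neighbours on chromosome 1 and *Col4a6* and *Col4a5* on chromosome X, in the same arrangement of paired genes. The within-array difference changed by 0.01 for *Col4a4* minus *Col4a3* and by -0.03 for *Col4a6* minus *Col4a5* (exact permutation p = 0.743 for each). For *Col6a2* minus *Col6a1*, neighbours on chromosome 10, the change was 0.07 (p = 0.800 by the same exact permutation test). For *Col5a2* minus *Col3a1*, neighbours on chromosome 1, it was 0.03 (p = 0.857 by the exact permutation test). Mean log2 signals of the genes in these pairs ran from 4.14 (*Col5a2*) to 6.24 (*Col6a1*), against 7.25 for *Col4a1* and 7.22 for *Col4a2*. Genes of low signal have little room to fall, which limits what these pairs can show.

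**Figure D3:**
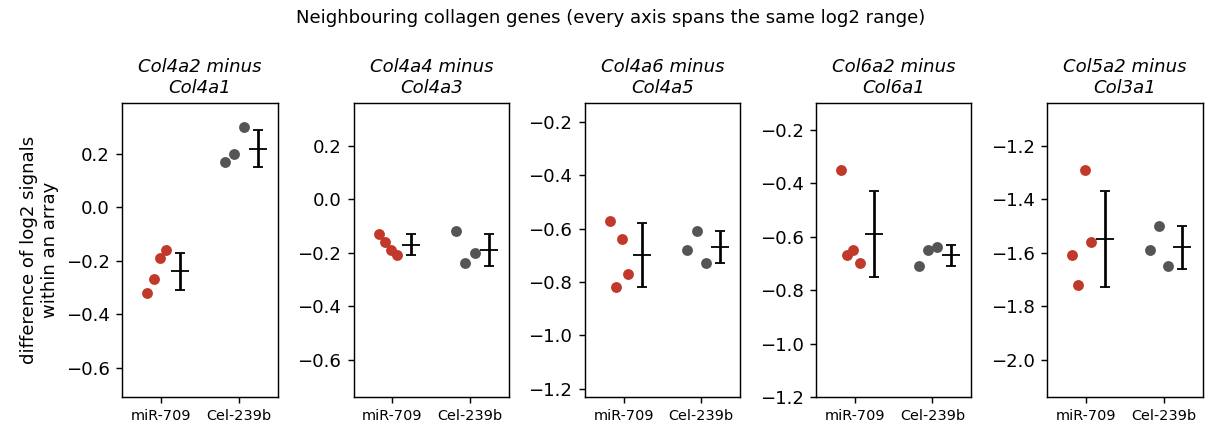
Difference of log2 signals within an array (y axis) for 5 pairs of neighbouring collagen genes, on the 4 miR-709 arrays (left in each panel) and 3 Cel-239b arrays (right), with mean and SD. In *Col4a2* minus *Col4a1* the miR-709 arrays lie between -0.32 and -0.16 and the Cel-239b arrays between 0.17 and 0.30, while the treatments overlap in the other 4 pairs. Genes of these 4 pairs had lower mean log2 signals, of 4.14 to 6.24.

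Laminins are the part of the basement membrane that cells bind first. None of the 10 laminin chain genes was called by limma. At an unadjusted p under 0.05, 1 was lower, against 5.83% of all genes. Their log2 fold changes ran between -0.32 and 0.06 with a median of -0.05. *Lamc1*, the gamma chain of most laminins, had the lowest, with log2 signals of 8.76, 8.65, 8.75 and 8.77 on miR-709 arrays A to D and 9.26, 8.97 and 8.92 on Cel-239b arrays B to D. All miR-709 arrays lay below all Cel-239b arrays, by a gap of 0.15, and Cel-239b array B was the highest. The log2 fold change was -0.32 (95% interval -0.51 to -0.13, unadjusted p = 0.00452, adjusted p = 0.0965). When only the 8638 genes whose signal averaged 6 or more were tested, of which 4.24% were called lower, *Lamc1* passed (adjusted p = 0.0400 from limma, 0.0400 to 0.334 over all 19 alternatives). Without Cel-239b replicate B, its log2 fold change was -0.21.

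Of the alpha chain genes, *Lama5* averaged 5.79 ± 0.09 with miR-709 and 5.90 ± 0.09 with Cel-239b, a log2 fold change of -0.11, while *Lama1*, *Lama2*, *Lama3* and *Lama4* had log2 fold changes of 0.05, 0.02, 0.03 and 0.06. The beta chain genes *Lamb1*, *Lamb2* and *Lamb3* had -0.04, -0.05 and -0.10. *Lamc3*, a gamma chain of few tissues, had -0.07. The 95% intervals of these 9 genes all lay within 0.5 of 0 on the log2 scale. *Lama1* gave 4.53 on 5 of the 7 arrays, and its signal, like those of *Lama2*, *Lama3*, *Lama4* and *Lamb1*, was under 5 on average.

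The proteoglycans and related collagens of the basement membrane were not called. *Agrn*, which codes for agrin, gave log2 signals of 8.60, 8.48, 8.72 and 8.82 on miR-709 arrays A to D and 8.92, 8.70 and 8.72 on Cel-239b arrays B to D, and the treatments overlapped. Its log2 fold change was -0.12 (95% interval -0.33 to 0.08, adjusted p = 0.584). *Hspg2*, the perlecan gene, averaged 5.65 ± 0.04 with miR-709 and 5.64 ± 0.06 with Cel-239b.

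*Col18a1*, whose protein carries heparan sulfate and is the source of endostatin, is expressed by hepatocytes. Its log2 signals were 7.80, 7.78, 7.72 and 7.76 on miR-709 arrays A to D and 7.77, 7.77 and 7.73 on Cel-239b arrays B to D. These values overlapped almost fully, and the 95% interval of the log2 fold change was -0.11 to 0.13 (adjusted p = 0.965). *Col15a1*, the closest relative of *Col18a1*, averaged 5.92 with miR-709 and 5.91 with Cel-239b and read 5.90 on 5 of the 7 arrays.

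Thrombospondins are calcium-binding glycoproteins that act between cells and matrix, and thrombospondin 1 is also known as an activator of latent TGF-beta. *Thbs1* gave log2 signals of 10.20, 10.24, 9.80 and 9.83 on miR-709 arrays A to D, against 11.49, 11.42 and 11.40 on Cel-239b arrays B to D. The treatments were 1.16 apart at their closest, and miR-709 arrays C and D were lower than A and B. *Thbs1* averaged 10.02 ± 0.23 with miR-709 (SD, n = 4) and 11.44 ± 0.05 with Cel-239b (SD, n = 3), so that the log2 fold change came to -1.42 (standard error 0.11, 95% interval -1.68 to -1.16, adjusted p = 0.000269 from limma), or 2.67-fold lower. Without miR-709 replicates C and D the log2 fold change was -1.22 (adjusted p = 0.00592, against 5.51e-05 to 0.0268 over all 19 alternatives). *Thbs2*, *Thbs3* and *Thbs4* had log2 fold changes of -0.06, -0.04 and 0.06, with mean log2 signals under 5, and none was called.

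Fibronectin, vitronectin, tenascin C and SPARC are further glycoproteins that bind cells or collagen. *Fn1*, the fibronectin gene, gave log2 signals of 12.44, 12.37, 12.14 and 12.13 on miR-709 arrays A to D and 12.63, 12.50 and 12.32 on Cel-239b arrays B to D. The values overlapped, with miR-709 arrays C and D the lowest of the 7, and the log2 fold change was -0.21 (95% interval -0.44 to 0.01, adjusted p = 0.369). *Vtn*, which codes for vitronectin, gave 12.46, 12.38, 12.28 and 12.13 on miR-709 arrays A to D and 12.09, 12.29 and 12.21 on Cel-239b arrays B to D. It had the highest fold change of the matrix genes, 0.12 on the log2 scale (95% interval -0.08 to 0.31, adjusted p = 0.594), and its treatments overlapped as well.

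*Tnc* codes for tenascin C, a matrix protein of wounds and of remodelling tissue. Its log2 signals were 4.99, 4.54, 4.41 and 4.40 on miR-709 arrays A to D and 5.29, 4.93 and 4.91 on Cel-239b arrays B to D. Only miR-709 array A reached into the range of the Cel-239b arrays. The log2 fold change was -0.46 (95% interval -0.80 to -0.12, unadjusted p = 0.0135, adjusted p = 0.176). It was -0.59 without miR-709 replicate A, which passed the threshold (adjusted p = 0.0336 from limma), and -0.28 without replicates C and D (adjusted p = 0.632), and the adjusted p was 0.0210 to 0.632 over its 17 alternatives. *Sparc*, whose protein binds collagen, averaged 5.70 ± 0.07 with miR-709 and 5.76 ± 0.05 with Cel-239b, and read 5.73 on 5 of the 7 arrays.

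None of the 7 genes for fibril and microfibril collagens was called by limma, and 0 passed at an unadjusted p under 0.05. *Col1a1* and *Col1a2*, the chains of type I collagen, had log2 fold changes of -0.08 and -0.07. *Col1a1* averaged 5.83 ± 0.16 with miR-709 and 5.91 ± 0.21 with Cel-239b, the widest spread of the 7. *Col3a1*, the chain of type III collagen, averaged 5.70 in both treatments. *Col5a1* and *Col5a2*, whose type V collagen starts fibrils, had -0.02 and 0.03, and *Col6a1* and *Col6a2*, of the beaded filaments of type VI collagen, had -0.08 and -0.01. Their median was -0.02, and the mean log2 signal was over 6 for 1 of them, *Col6a1*.

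Lysyl oxidases oxidise lysines of collagen and elastin, the step that leads to cross-links. *Lox* gave log2 signals of 8.80, 8.93, 9.00 and 9.05 on miR-709 arrays A to D and 8.86, 8.96 and 8.97 on Cel-239b arrays B to D. These overlapped fully, and the log2 fold change was 0.02 (95% interval -0.15 to 0.18, adjusted p = 0.952). *Loxl1* averaged 4.15 ± 0.08 with miR-709 and 4.20 ± 0.06 with Cel-239b.

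For 34 of the 36 matrix genes that were not called, the whole 95% interval lay within 0.5 of 0 on the log2 scale, that is within 1.41-fold. The exceptions were *Lamc1* and *Tnc*. Of the 36 genes, 8 had a mean log2 signal over 6. Genes of low signal have little room to fall, so a narrow interval there does not show a steady transcript. The mean log2 signal was over 6 in 11 of the 39 genes, against 43.3% of all genes, and under 5 in 12. The same value on at least 4 of the 7 arrays was found in 5 of the 39 (12.8%), against 7.85% of all genes. The 3 called genes, *Lamc1* and *Col4a1* were all among the 11 with a signal over 6, whose median log2 fold change was -0.21. The plot of change against signal shows that the matrix genes with low signals lie in the narrow band near 0, with *Tnc* below it.

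**Figure D4:**
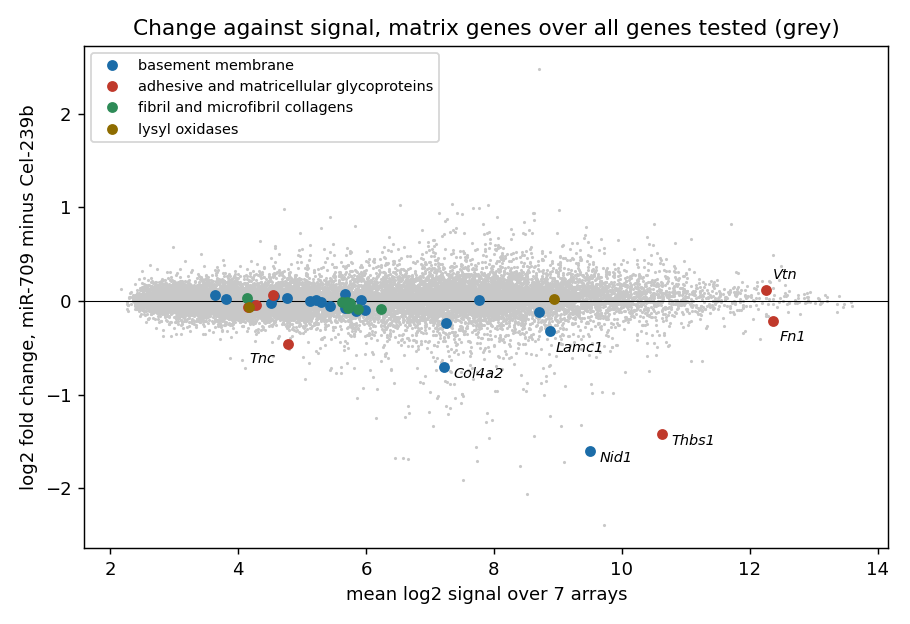
Log2 fold change (y axis, miR-709 minus Cel-239b) against the mean log2 signal over the 7 arrays (x axis) for all 19938 genes (grey) and the 39 matrix genes (coloured by role). *Nid1*, *Thbs1* and *Col4a2* lie at -1.60, -1.42 and -0.70, all at signals over 6, and 12 matrix genes have a signal under 5.

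Across arrays, the mean deviation of the 39 genes from their Cel-239b mean was -0.11, -0.16, -0.15 and -0.14 on miR-709 arrays A to D, against 0.02, -0.01 and -0.01 on Cel-239b arrays B to D. Without the 3 called genes it was -0.03, -0.07, -0.04 and -0.05 with miR-709 and 0.01, 0.00 and -0.01 with Cel-239b. The 8 glycoprotein genes were lower on miR-709 arrays C and D (-0.35 and -0.34) than on A and B (-0.13 and -0.23). The 18 measured interferon-stimulated genes, which respond to viral or transfected nucleic acid, also set arrays C and D apart. None of them was called by limma, and their median log2 fold change was 0.35. At an unadjusted p under 0.05, 0 were lower and 3 higher, against 5.83% and 9.15% of all genes. Their mean deviation was -0.11, -0.04, 0.85 and 0.85 on miR-709 arrays A to D and -0.17, -0.03 and 0.21 on Cel-239b arrays B to D. Without arrays C and D, the same count of 3 matrix genes was called lower. The part of this response in the spread of *Thbs1*, *Fn1* and *Tnc* was not tested.

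**Figure D5:**
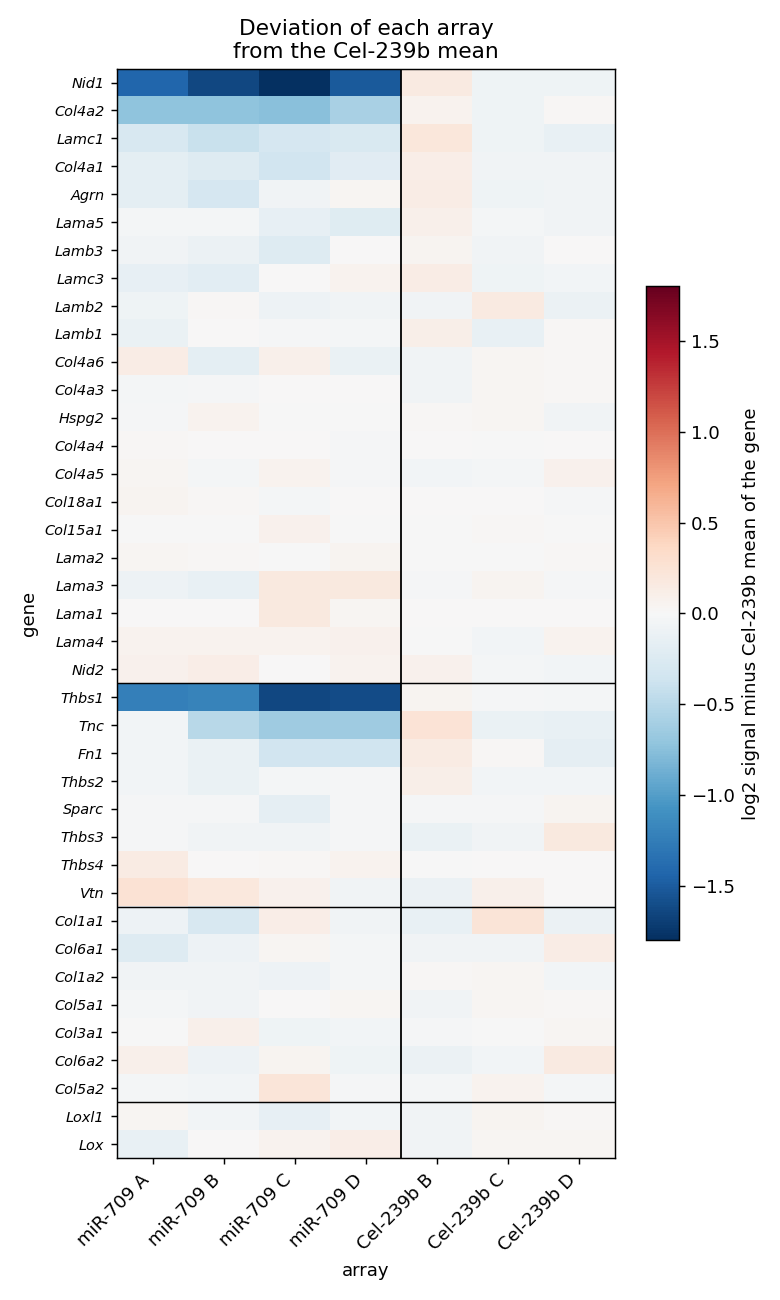
Log2 signal minus the Cel-239b mean of the gene (colour) for the 39 matrix genes (rows, by role) on the 4 miR-709 arrays (left of the vertical line) and the 3 Cel-239b arrays (right). *Nid1*, *Col4a2* and *Thbs1* are blue on all 4 miR-709 arrays, and *Thbs1*, *Tnc* and *Fn1* are lowest on C and D.

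Cells hold on to this matrix through integrins, dystroglycan, syndecans and other receptors, of which 30 were measured. With miR-709, 2 were lower (6.67%, against 1.47% of all genes) and 1 was higher (3.33%, against 1.81%), and the median log2 fold change was -0.06. *Itga5*, the alpha subunit of the main fibronectin receptor, gave 7.72, 7.59, 7.58 and 7.53 on miR-709 arrays A to D and 8.68, 8.64 and 8.39 on Cel-239b arrays B to D. The treatments did not overlap, and it fell by 0.96 on the log2 scale (adjusted p = 0.000341 from limma), or 1.95-fold. *Itgav*, a subunit of vitronectin receptors, was higher, with 10.22, 10.21, 10.16 and 10.20 with miR-709 and 9.92, 9.69 and 9.68 with Cel-239b (log2 fold change 0.43, adjusted p = 0.00970 from limma). *Cd44*, a receptor for hyaluronan, was lower (log2 fold change -0.44, adjusted p = 0.0233). By the methods' t-test, neither *Itgav* (adjusted p = 0.0764) nor *Cd44* (adjusted p = 0.153) passed, and over all 19 alternatives the adjusted p was 0.00322 to 0.118 for *Itgav* and 0.00812 to 0.153 for *Cd44*. The call of *Itgav* was also lost without Cel-239b replicate C (adjusted p = 0.0557), and that of *Cd44* without miR-709 replicate D (0.0822) or Cel-239b replicate B (0.0871), C (0.118) or D (0.0556). At an unadjusted p under 0.05, 6 of the 30 were lower and 1 higher, against 5.83% and 9.15% of all genes. Among the genes for laminin receptors, *Itga3* had a log2 fold change of -0.27 (unadjusted p = 0.00992, adjusted p = 0.150 from limma), with every miR-709 array below every Cel-239b array. *Itga6*, *Itga7*, *Itgb1*, *Itgb4*, *Dag1* and *Bcam* had log2 fold changes of -0.08, 0.02, -0.04, 0.05, -0.18 and 0.03, and none of the 7 was called.

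Of 24 measured genes for collagen maturation and cross-linking, 1 was lower (4.17%, against 1.47% of all genes) and 0 were higher (against 1.81%) by limma, with a median log2 fold change near 0. At an unadjusted p under 0.05, 3 were lower and 1 higher, against 5.83% and 9.15% of all genes. *P4ha1*, a subunit of the prolyl hydroxylase that stabilises the collagen helix, gave 7.18, 7.09, 7.14 and 7.05 on miR-709 arrays A to D and 7.50, 7.44 and 7.52 on Cel-239b arrays B to D, without overlap (log2 fold change -0.37, adjusted p = 0.00784 from limma). Without miR-709 replicates C and D it did not pass (adjusted p = 0.0964, the highest of the 19 alternatives, which began at 0.00263). *Plod2*, a lysyl hydroxylase of collagen, had a log2 fold change of -0.52 (adjusted p = 0.203), and its treatments overlapped.

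Of 48 further measured genes for structural and matricellular proteins, 1 was lower by limma, a share of 2.08% that is near the 1.47% of all genes, and 0 were higher (against 1.81%), with a median log2 fold change of 0.00. At an unadjusted p under 0.05, 7 were lower and 2 higher, against 5.83% and 9.15% of all genes. *Ccn1*, a matricellular protein, was lower (log2 fold change -0.29, adjusted p = 0.0291). It gave 11.26, 11.21, 11.15 and 11.17 on miR-709 arrays A to D and 11.45, 11.55 and 11.45 on Cel-239b arrays B to D. The treatments did not overlap, but over the 19 alternatives the adjusted p ran between 0.00881 and 0.208 and the call was lost in 9. These included the omission of any array other than miR-709 A, where the adjusted p reached 0.111. Its relative *Ccn2* had a log2 fold change of -0.32 (adjusted p = 0.105).

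Cell types other than hepatocytes were checked through their markers, because several matrix genes are best known from such cells. Of 18 markers of stellate cells and myofibroblasts, 3 were lower with miR-709 (16.7%, against 1.47% of all genes) and 0 were higher by limma. At an unadjusted p under 0.05, 4 were lower and 2 higher, against 5.83% and 9.15% of all genes. Those called were *Acta2*, smooth muscle actin (log2 fold change -1.34), *Tagln*, an actin-binding protein (-1.25), and *Vim*, an intermediate filament (-0.40), genes that cultured hepatocytes can also express. The level of the whole list, as a mean log2 signal, was 5.44 to 5.49 on the miR-709 arrays and 5.58 to 5.63 on the Cel-239b arrays, and the median log2 fold change was 0.01. Of the genes that define stellate cells, *Reln* had a log2 fold change of -0.26 (unadjusted p = 0.0248, adjusted p = 0.241 from limma), with log2 signals of 5.86 to 6.10 on the miR-709 arrays and 6.06 to 6.45 on the Cel-239b arrays. The 2 markers higher at an unadjusted p under 0.05 were *Pdgfra* (log2 fold change 0.23, adjusted p = 0.237 from limma) and *Angptl6* (0.17, adjusted p = 0.272). In *Pdgfra* every miR-709 array lay above every Cel-239b array. *Des* averaged 4.16 with miR-709 and 4.06 with Cel-239b, *Lrat* averaged a log2 signal of 3.84 with miR-709 and 3.85 with Cel-239b, and *Pdgfrb* averaged 4.05 with miR-709 and 4.08 with Cel-239b. The part of stellate cells in the fall of the matrix genes was not tested.

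Of 17 sinusoidal endothelial markers, 0 were called by limma. At an unadjusted p under 0.05, 0 were lower and 2 higher, against 5.83% and 9.15% of all genes. Their mean log2 signal was 4.73 to 4.77 with miR-709 and 4.70 to 4.76 with Cel-239b. Of 18 Kupffer cell and leukocyte markers, 0 were called by limma, also at an unadjusted p under 0.05. Their mean log2 signal was 4.21 to 4.28 with miR-709 and 4.22 to 4.24 with Cel-239b. Only *Cd68* had a mean log2 signal over 6, with 10.71 with miR-709 and 10.62 with Cel-239b. Of 10 measured markers of cholangiocytes, the epithelial cells of bile ducts, 1 was lower (10%, against 1.47% of all genes), the keratin gene *Krt19* (log2 fold change -1.23, adjusted p = 0.0377 from limma), and 0 were higher. At an unadjusted p under 0.05, 4 were lower and 0 higher, against 5.83% and 9.15% of all genes. The others of these 4 were *Krt7* (log2 fold change -0.29), *Sox9* (-0.30) and *Prom1* (-0.27), and the median of the list was -0.18. Its mean log2 signal was 5.48 to 5.71 with miR-709 and 5.76 to 5.88 with Cel-239b. Relative to the Cel-239b mean, this list also lay lower on miR-709 arrays C and D (-0.33 and -0.34) than on A and B (-0.11 on each), as did *Thbs1*, *Fn1* and *Tnc*. Of 13 hepatocyte markers, 3 were higher (23.1%, against 1.81% of all genes) and 0 were lower, with a mean log2 signal of 11.36 to 11.47 on the miR-709 arrays and 11.23 to 11.29 on the Cel-239b arrays. Those that rose were *Hnf4a*, a transcription factor of hepatocytes (log2 fold change 0.57), *Tat*, an enzyme of tyrosine breakdown (0.62), and *Cps1*, of the urea cycle (0.68). The other 10 hepatocyte markers were not called, and the median log2 fold change of the list was 0.05. The part of any shift in cell make-up or hepatocyte state in the matrix genes was not tested.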

How the data were processed

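Total RNA of 7 replicates was hybridised to Affymetrix arrays (Mouse Gene 1.0 ST), 1 for each replicate. The authors deposited log2 signals per probe set, made in Partek by RMA, which corrects the background, quantile normalises the arrays and summarises probes (versions not given in the sources used here). Scanner files were not analysed here. The table holds 28853 probe sets, of which the 21789 with a unique gene symbol were kept (1621 have several symbols and 5443 none). Where a gene had more than 1 probe set (999 genes), the brightest was used, which left 19938 genes. Treatments were compared with limma 3.58.1 in R 4.3.3 (lmFit and eBayes, 2-sided, no block), and p-values were Benjamini-Hochberg adjusted over all genes. The fit was checked on simulated data. Differences between relatives were tested by exact permutation over arrays. Promoter windows are those of RefSeq on GRCm38.p6.

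The matrix genes and the other lists were chosen with earlier results of these data known. Values on every array are given for matrix genes with an unadjusted p under 0.05 and for the 8 with the highest mean signal, and *Nid2* was added after its values were seen. Of the other lists, called genes are named. Markers that were not called, the laminin receptor genes, *Plod2* and *Ccn2* were added after their values were seen. The marker lists share *Ecm1*, *Dcn* and *Spp1* with the list of further matrix genes. The 19 alternatives were the methods' t-test (their 1-way ANOVA for 2 groups), limma-trend, array weights, averaging of probe sets, a minimum mean signal of 5 or 6, cyclic loess, quantile normalization applied again, median centring, a block for the replicate letter (fixed, then random), omission of each array, and miR-709 replicates C and D left out together, which was added after seeing the data.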

Additional observations from a re-analysis of the deposited data

Results flagged for a closer look

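Among the 39 matrix genes, 5 had 1 miR-709 array far from the other 3, with a gap to the nearest array, as a share of the range, above Dixon's 95% critical value for 4 values. Chance gives this in about 1 in 20 groups of values without ties, and the 3 Cel-239b arrays were too few to be examined in this way. In *Lama4*, *Col15a1* and *Sparc* the other 3 miR-709 arrays shared the same value. Any deviation is then flagged, so the 5 cannot be set against that rate. *Lama4* was highest on miR-709 array D, at 3.67, where the others read 3.65. *Lamc1* was lowest on array B, at 8.65, against 8.75 to 8.77 on the others. *Col15a1* was highest on array C, at 5.99, where the others read 5.90. *Sparc* was lowest on array C, at 5.59, where the others read 5.73. *Col5a2* was highest on array C, at 4.34, against 4.08 to 4.10 on the others. Of these genes only *Lamc1* had a mean log2 signal over 6, and none of the 5 was called.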

How the results depend on the processing

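*Nid1*, *Thbs1* and *Col4a2* were called lower in all 19 alternatives, with log2 fold changes of -1.65 to -1.52, -1.49 to -1.22 and -0.74 to -0.66. *Lamc1* was a further call with the minimum signal of 6. No matrix gene was called higher in any of them. With 1 array left out, 3 or 4 matrix genes were called lower. The median of the matrix genes was -0.06 with a minimum mean signal of 5 (27 genes), -0.21 with a minimum of 6 (11 genes), and -0.05 to -0.01 with 1 array left out. Over all genes, 293 were lower and 361 higher. The methods' t-test gave 113 lower and 113 higher, and the minimum of 6 gave 555 higher. Leaving out 1 array gave 181 to 244 lower and 180 to 294 higher, and leaving out miR-709 replicates C and D together gave 92 lower and 76 higher. The cause of these shifts was not tested, though the last settings use fewer arrays.

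The fold changes of *Lox* and *Col18a1*, never called, changed sign. *Lox* was -0.01 after further quantile normalization, -0.02 after cyclic loess, -0.07 without miR-709 replicates C and D, and -0.02 to 0.06 with 1 array left out. *Col18a1* was -0.02 after either normalization and -0.01 to 0.02 with 1 array left out.

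Deviations of same-letter arrays correlated at 0.02 (B), 0.02 (C) and 0.05 (D) over genes, and those of different letters at -0.06 to 0.08. With so few arrays, these values cannot tell whether a letter stands for a shared mouse or isolation. The letter as a fixed replicate block over B to D also leaves out miR-709 array A. In this setting *Col18a1* was -0.00, 180 genes were higher, the 3 called matrix genes stayed lower, and *Tnc* passed as well (-0.59, adjusted p = 0.0210 from limma). *Tnc* also passed at -0.59 without array A and with no block (adjusted p = 0.0336 from limma), so its call cannot be credited to the block. Outside the 39 genes, *Itga5* kept its call in all 19 alternatives, *Cd44* lost it in 7 of the 19 alternatives, *Itgav* in 4, *P4ha1* in 2 and *Ccn1* in 9, the fixed block among them for each of these 4.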
